A study of Mus musculus with 77 samples.

Results

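Neuropeptide genes of the BNST (bed nucleus of the stria terminalis) were followed in mRNA bound to AGO2, the Argonaute protein that carries mature miRNAs in the RNA-induced silencing complex. The set was chosen by name and held 10 genes: Penk, Pdyn, Sst, Npy, Tac1, Tac2, Cck, Nts, Cartpt and Vip. Of these, 9 had a row among the 16587 genes of the AGO2-bound mRNA table, and the mRNA level of Vip was not analysed here. The pools came from male B6 mice (C57BL/6Crl in the labels, C57BL/6NCrl in the methods of the study) aged 8 weeks at dissection, and each pool held the BNST of 3 mice. The resilient and susceptible mice underwent 10 days of chronic social defeat stress (CSDS), in which a mouse meets a new aggressor each day. They were sorted by their social interaction afterwards, and the study profiled mice from both extremes of this measure. The same-strain control mice, chosen near the mean of this measure, were housed beside an unfamiliar neighbour without physical contact. Tissue was taken 6 to 8 days after the end of CSDS. There were 5 control, 5 resilient and 4 susceptible pools. Blood mRNA of 15 B6 and 10 D2 mice (DBA/2Crl in the labels), males of the same age from control and defeated groups, enters 1 closing comparison of Tac2 alone.

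Neuropeptides are cut from larger precursor proteins by convertases in the secretory pathway, stored in dense core vesicles, released on strong activity and sensed by G protein-coupled receptors. The BNST is part of the extended amygdala and consists largely of GABAergic neurons, whose subtypes are often told apart by the peptides they make. It is known for its role in sustained anxiety and in the response to stress, and the comparison of the groups asks which bound mRNAs differ after defeat.

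Among the 9 genes, Sst and Npy were lower in both defeated groups than in the controls by the criteria of the study (called below: a fold change of 1.2 or more with an unadjusted p below 0.05). In the susceptible pools every value of Sst and every value of Npy lay below every control value. In the resilient pools both genes overlapped the controls, with an adjusted p of 0.177 (Sst) and 0.211 (Npy) in limma. These 2 calls were lost in 6 (Sst) and 9 (Npy) of 21 alternative fits. Penk, Tac1 and Pdyn varied widely from pool to pool. They moved along with lists of striatal and GABAergic neuron markers. They moved opposite to the sum of a list of BNST markers, most of which came from Prkcd. No member differed between susceptible and resilient pools by the same criteria. A lower value in these bulk pools can come from fewer cells that make a peptide, from less mRNA per cell or from a smaller share of it bound to AGO2, and these cannot be told apart here.

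The reads on all genes of the table ranged from 3701281 to 10659882 per pool, both extremes being resilient pools. Resilient pool 3, the deepest, stood apart: it held the highest values of Penk, Pdyn and Tac1 of all 14 pools, while resilient pool 2 held the lowest of each. All 7 listed markers of BNST and extended amygdala neurons were detected in every pool, and their summed level ranged from 178.5 to 329.5 CPM (reads scaled to the size of the library) in control, from 175.7 to 575.8 in resilient and from 281.6 to 404.8 in susceptible pools. Most of this sum came from Prkcd, with a mean log2 CPM of 7.65 in control pools, and the list includes Tac2, itself a member. The 8 markers of striatal projection neurons, which lie beside the BNST, were also detected in every pool at a higher summed level, from 1810 to 2941 CPM in control, from 810.9 to 3398 in resilient and from 878.8 to 2460 in susceptible pools. The summed level of 5 choroid plexus markers ranged from 32.93 to 187.3 CPM in control, from 23.96 to 135.9 in resilient and from 12.38 to 60.42 in susceptible pools. For 4 ependymal markers these ranges were 16.58 to 36.7, 10.07 to 29.21 and 9.828 to 14.33 CPM.

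The bound mRNAs covered a wide span of levels. Per kilobase of exon, the mean of the 5 control pools was 97.5 ± 21.1 (SD) CPM for Penk and 33.4 ± 4.23 for Sst. It was 14.7 ± 4.43 for Npy, 12.3 ± 2.12 for Tac1, 6.82 ± 1.91 for Cck and 6.40 ± 1.29 for Pdyn. The lowest means were 3.24 ± 1.73 for Tac2, 2.95 ± 1.07 for Nts and 1.32 ± 0.650 for Cartpt. Penk and Sst were each separated from their neighbours in this order in every control pool, whereas from Npy down the ranges of each pair of neighbours overlapped. The order depends on the length used. With the length of the single transcript that has the longest 3′ UTR in place of all exons of the gene, Tac1 lay at 33.9 ± 5.85, level with Sst, and Cck at 18.6 ± 5.23, above Npy. The 3′ UTRs of the members were short. Their median longest 3′ UTR was 350 bases, against 1424 bases over the 13943 genes of the table with an annotated coding transcript, and 8 of the 9 lay under that median.

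**Figure D1:**
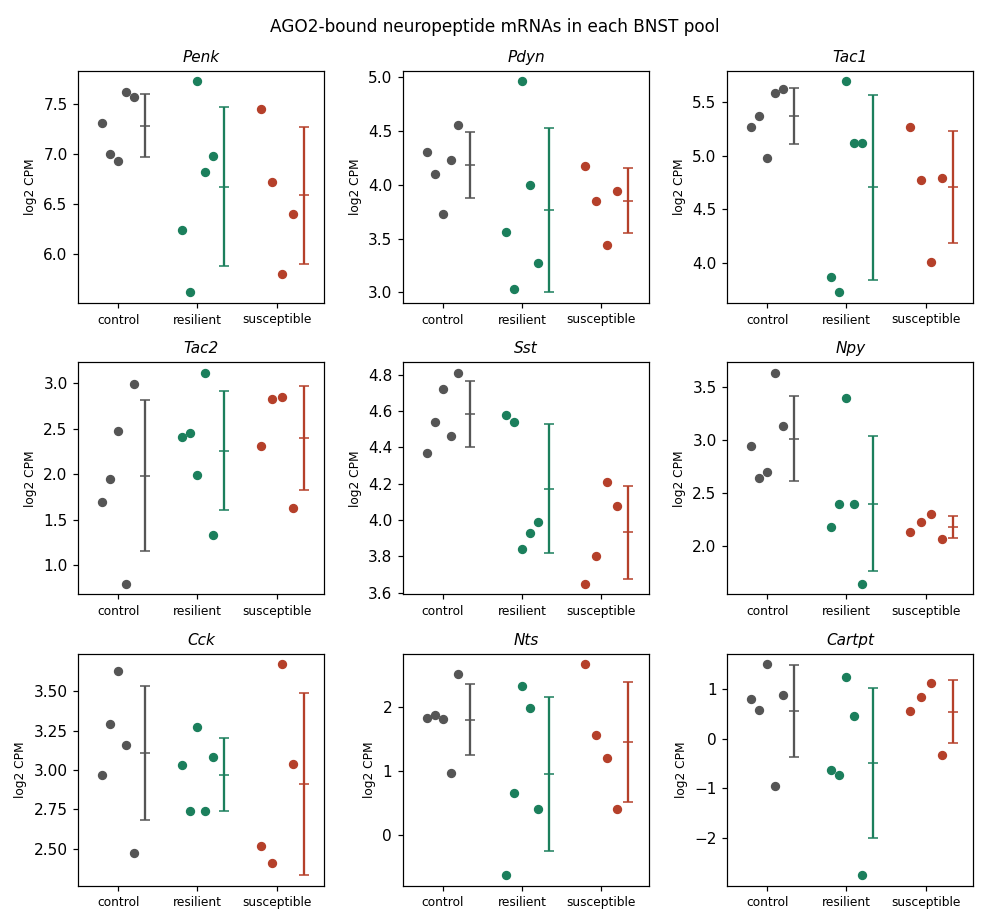
Log2 CPM of the 9 measured neuropeptide mRNAs in each pool, 1 point per pool, with the mean and SD of each group beside the points; the vertical axes differ between panels. For Sst and Npy the 4 susceptible pools lie below all 5 control pools, whereas the groups overlap for the other 7 genes.

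Sst encodes somatostatin, an inhibitory peptide of a class of GABAergic neurons, and lies on chromosome 16 of GRCm38 from 23889573 to 23890958 on the minus strand (ENSMUSG00000004366). Its log2 CPM in control pools 1 to 5 was 4.37, 4.54, 4.72, 4.46 and 4.81. In the resilient pools 1 to 5 it was 4.58, 4.54, 3.84, 3.93 and 3.99, and in the susceptible pools 1 to 4 it was 3.65, 3.80, 4.21 and 4.08. The susceptible pools were all below the controls, and the resilient pools were split, 3 below every control and 2 within the control range. Against controls, the log2 fold change of the susceptible pools was -0.65 (SE 0.18), with an adjusted p = 0.0482 in limma after Benjamini-Hochberg adjustment over all genes. An exact two-sided permutation test of the pools gave p = 0.00794, the smallest that 4 pools against 5 allow. The adjusted p lay between 0.0197 and 0.165 over 21 alternative fits and was under 0.05 in 7 of them, whereas the call by the criteria of the study was made in all 21. In resilient pools against controls the log2 fold change was -0.41 (SE 0.17), with an exact permutation p = 0.0794 and an adjusted p = 0.177 in limma, and the call was lost in 6 of the 21 alternative fits.

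The transcription of Sst is a textbook case of control by cyclic AMP, and the known element is shown because it is among the best described features of the gene. In the RefSeq promoter windows of GRCm38.p6, which run from 250 bases before to 50 bases after the start, the element TGACGTCA was searched; it is its own reverse complement, so that 1 search covers both strands. Of the 9 members with a window, Vip included, Sst and Cartpt held it, and 1.79% of all 32851 windows did. Penk had no window in the table. The element lay 48 bases before the RefSeq start of Sst and 112 bases before that of Cartpt. These elements lie inside the GENCODE spans of the genes, which begin farther upstream. Both are printed 5′ to 3′ on the strand of the gene, chr16:23890874-23890903 and chr13:99900777-99900806, with the element in capitals.
Sst: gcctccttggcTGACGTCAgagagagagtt
Cartpt: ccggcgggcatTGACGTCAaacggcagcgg
These letters were matched by sequence alone, and the binding of any factor was not measured.

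Npy encodes neuropeptide Y, an abundant peptide with anxiety-reducing actions that is often made by the same interneurons as somatostatin (chromosome 6 of GRCm38 from 49822710 to 49829507, plus strand, ENSMUSG00000029819). Its log2 CPM in the control pools was 2.94, 2.64, 2.69, 3.63 and 3.13. In the resilient pools it was 2.18, 2.39, 3.39, 2.39 and 1.64, and in the susceptible pools 2.13, 2.22, 2.30 and 2.06. The 4 susceptible pools lay close together below all controls, and 4 of 5 resilient pools did so too, pool 3 being the exception. These values rest on 28 to 60 reads in control, 10 to 112 in resilient and 22 to 39 in susceptible pools. The log2 fold change was -0.83 in susceptible pools (SE 0.29), with an exact permutation p = 0.00794 and an adjusted p = 0.106 in limma. In resilient pools it was -0.61 (SE 0.27; exact permutation p = 0.111; adjusted p = 0.211 in limma), and the call was lost in 9 of the 21 alternative fits. Over these the estimate ranged from -0.86 without resilient pool 3 (adjusted p = 0.0269 from limma) to -0.42 with voom on the recovered reads, where the adjusted p reached 0.453.

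By these criteria 2 of the 9 members fell in resilient pools against controls and 0 rose, where 9.04% of all genes fell and 8.65% rose. In susceptible pools against controls 2 of 9 fell and 0 rose, where 9.28% of all genes fell and 9.65% rose. At an adjusted p under 0.05 from limma, 1 of 9 (Sst) fell in susceptible pools, beside 1.71% of all genes. In resilient pools 0 of 9 did so, beside 0.633%. There 2 of 9 had an unadjusted p under 0.05 in limma, as did 3439 of the 16587 genes, a share close to that of the members. Groups that did not overlap, with the defeated pools lower, were found for 2 of 9 members in susceptible pools (5.05% of all genes) and for 0 of 9 in resilient pools (2.18% of all genes). The median log2 fold change of the members was -0.61 in resilient and -0.34 in susceptible pools, with a negative sign for 8 of 9 in each, against medians of -0.02 and -0.01 over all genes. Both comparisons share the 5 control pools, so that a high or low control pool moves both.

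The count in resilient pools depended on single pools. Without resilient pool 3 it was 6 (Penk, Pdyn, Npy, Tac1, Nts and Cartpt, all lower, and Sst no longer called), and without control pool 5 it was 0. In susceptible pools the count ranged from 2 to 4 when 1 pool was left out. It was 4 without susceptible pool 1 and without resilient pool 2 or 3, with Penk and Tac1 added in each case.

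**Figure D2:**
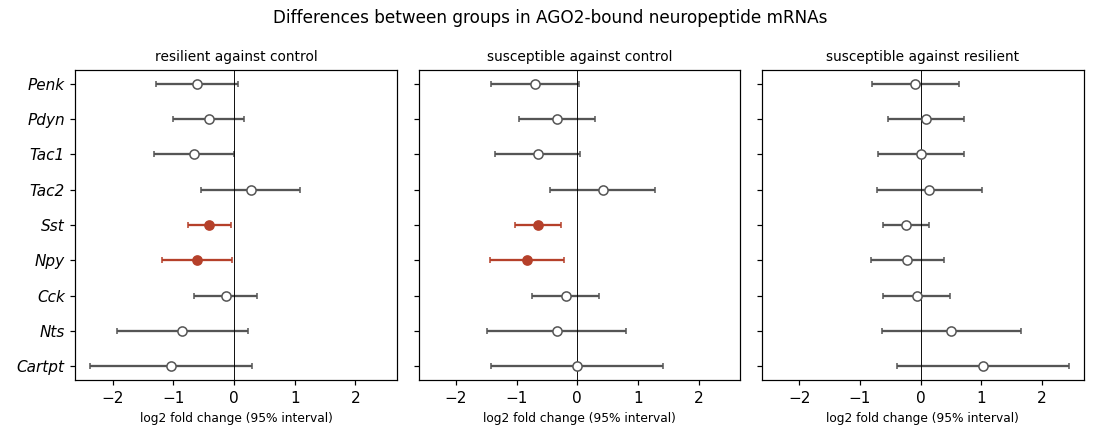
Log2 fold change of each measured neuropeptide mRNA in the 3 comparisons of groups, with the 95% interval from limma; filled red points mark genes that were called. Sst and Npy are filled in both comparisons with the controls, and no point is filled in susceptible against resilient pools.

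Penk and Pdyn encode the precursors of the opioid peptides, enkephalins and dynorphins. The log2 CPM of Penk in the control pools was 7.31, 7.00, 6.93, 7.62 and 7.57. In the resilient pools it was 6.24, 5.62, 7.73, 6.82 and 6.98, and in the susceptible pools 7.45, 6.72, 5.80 and 6.40. The controls lay within a narrow band, while the defeated pools reached from far below that band to its upper part or beyond, so that the groups overlapped. The log2 fold change of Penk was -0.61 in resilient (SE 0.32, adjusted p = 0.294 from limma) and -0.70 in susceptible pools (adjusted p = 0.251 from limma, SE 0.34), neither of which was called. In susceptible pools it was called in 7 of the 21 alternative fits, and the estimate ranged from -0.98 without susceptible pool 1 to -0.43 without susceptible pool 3. In resilient pools it ranged from -0.87 without pool 3 to -0.35 without pool 2, and it was called in 2 fits.

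The log2 CPM of Pdyn was 4.30, 4.10, 3.73, 4.23 and 4.55 in the control pools. It was 3.56, 3.03, 4.96, 4.00 and 3.27 in the resilient and 4.17, 3.85, 3.44 and 3.94 in the susceptible pools. As with Penk, resilient pool 3 was the highest and resilient pool 2 the lowest of all pools. The log2 fold changes of -0.42 (SE 0.28) and -0.33 (SE 0.30) had 95% intervals from -1.01 to 0.17 and from -0.96 to 0.29. In resilient pools the estimate was -0.72 without resilient pool 3 (adjusted p = 0.0346 from limma) and -0.23 with voom on the recovered reads.

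Tac1 encodes the precursor of substance P and neurokinin A, and Tac2 that of neurokinin B, a peptide tied to the effects of social isolation in the mouse forebrain. The log2 CPM of Tac1 in the control pools was 5.27, 5.37, 4.98, 5.58 and 5.62. It was 3.87, 3.73, 5.69, 5.12 and 5.12 in the resilient and 5.27, 4.77, 4.01 and 4.79 in the susceptible pools. Resilient pools 1 and 2 and susceptible pool 3 were far below the others. The log2 fold change was -0.66 in resilient (95% interval -1.32 to 0.0038) and -0.65 in susceptible pools (95% interval -1.36 to 0.05). Exact permutation p was 0.167 and 0.0397, and the adjusted p was 0.244 and 0.271 in limma. Neither was called, but Tac1 was called in 7 of the 21 alternative fits in each comparison.

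Tac2 was the only member with positive estimates in both comparisons with the controls. Its log2 CPM was 1.69, 1.95, 2.47, 0.80 and 2.99 in the control, 2.41, 2.45, 1.99, 3.11 and 1.33 in the resilient and 2.31, 2.82, 2.84 and 1.63 in the susceptible pools, on 8 to 57 reads. The groups overlapped widely. The log2 fold changes were 0.27 (SE 0.39) and 0.42 (SE 0.41), with 95% intervals from -0.54 to 1.09 and from -0.45 to 1.28.

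Cck encodes cholecystokinin, which cortical excitatory neurons and some interneurons make in large amounts. Its log2 CPM was 2.97, 3.29, 3.63, 3.16 and 2.47 in the control, 3.03, 2.74, 3.27, 2.74 and 3.08 in the resilient and 2.52, 2.41, 3.67 and 3.04 in the susceptible pools. No group stood out, and the log2 fold changes of -0.13 (SE 0.25) and -0.20 (SE 0.26) were smaller than the SD of the control pools, 0.43.

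Nts and Cartpt, which encode neurotensin and the cocaine- and amphetamine-regulated transcript peptides, were the members with the fewest reads. Nts had 9 to 35 reads in control, 2 to 53 in resilient and 7 to 32 in susceptible pools, with log2 CPM of 1.83, 1.87, 1.81, 0.96 and 2.51, then -0.63, 0.66, 2.32, 1.98 and 0.41, then 2.66, 1.55, 1.2 and 0.41. Cartpt had 2 to 12, 0 to 25 and 4 to 17 reads, with log2 CPM of 0.80, 0.57, 1.5, -0.96 and 0.89, then -0.63, -0.72, 1.25, 0.45 and -2.75, then 0.55, 0.85, 1.12 and -0.33. Their largest estimates were in resilient pools, -0.85 for Nts (SE 0.51, adjusted p = 0.357 from limma) and -1.04 for Cartpt (SE 0.63, adjusted p = 0.361 from limma). Neither was distinguishable from the spread between pools at this depth.

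Between susceptible and resilient pools 0 of 9 members were called, where 2.14% of all genes were, and 0 had an unadjusted p under 0.05. The log2 fold change was -0.24 for Sst, with a 95% interval from -0.61 to 0.13, and -0.22 for Npy, with an interval from -0.83 to 0.39. For Penk the interval was -0.80 to 0.63, for Tac1 -0.70 to 0.71 and for Pdyn -0.54 to 0.71. For Cartpt the estimate was 1.03, with an interval from -0.39 to 2.44. A p that misses the threshold does not show that these groups are alike.

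Some members moved together over the 14 pools. As a description over pools, in which both genes of a pair share the library of each pool, Pearson's r was 0.95 for Penk and Tac1 (Spearman's rho 0.97), 0.83 for Penk and Pdyn (rho 0.86) and 0.81 for Tac1 and Pdyn (rho 0.86). Within the groups, taking each pool as its deviation from the group mean, these r were 0.94, 0.81 and 0.78. Without the 2 pools farthest from the median of the first gene of each pair they were 0.90, 0.73 and 0.71. Sst ran the other way within the groups, with an r of deviations of -0.81 with Penk and -0.85 with Tac1, whereas over the pooled values r was -0.13 and -0.15. Npy and Sst had an r of 0.36 over the pools and -0.23 within the groups.

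The striatal marker list moved with the first 3 of these genes. Over the 14 pools, the log2 of its summed CPM had an r of 0.98 with Penk, 0.92 with Tac1 and 0.78 with Pdyn (rho 0.97, 0.93 and 0.82), and 0.96, 0.83 and 0.64 without the 2 pools farthest from the median of the list. Other marker lists varied with these genes too. The sum of the GABAergic markers had an r of 0.78 with Penk, 0.695 with Tac1 and 0.81 with Pdyn. The sum of the BNST markers, most of which came from Prkcd, ran the other way, with -0.68, -0.67 and -0.91. For Pdyn both relations were closer than that of the striatal list, also within the groups (0.80 and -0.90, against 0.76). Striatal projection neurons are known to make Penk, Tac1 and Pdyn themselves. The medians of the 8 markers were -0.52 in resilient and -0.67 in susceptible pools on the log2 scale. Of the 8, 2 fell in both comparisons, among them Adora2a (-1.01 and -1.05), and none of the 8 was at 0 reads in any pool. The part of any of these lists in the differences of Penk, Tac1 and Pdyn was not tested. For Sst the striatal list had an r of -0.20 over the pools and -0.81 within the groups. In the susceptible pools the order of Sst was the reverse of that of the striatal markers. For Npy r was 0.50 over the pools and 0.34 within the groups.

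**Figure D3:**
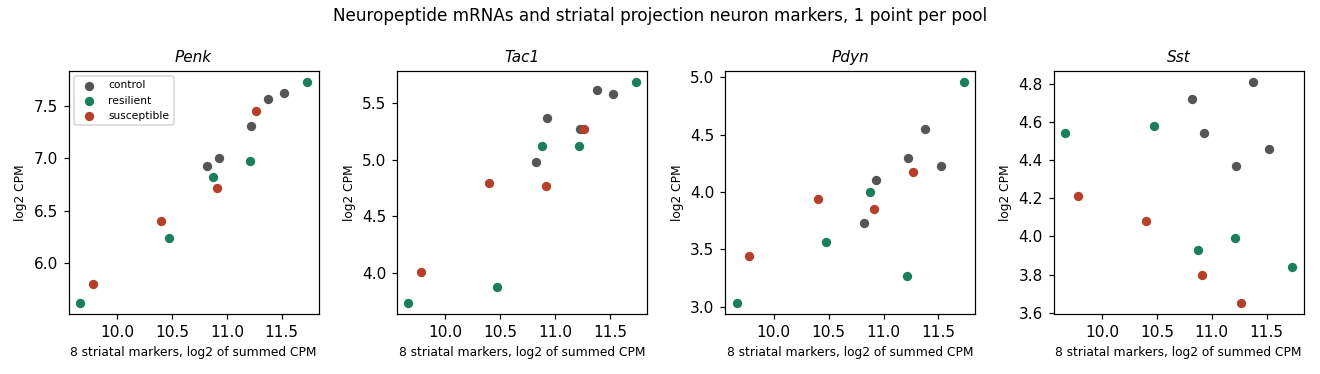
Log2 CPM of Penk, Tac1, Pdyn and Sst against the log2 of the summed CPM of 8 striatal projection neuron markers, 1 point per pool, coloured by group. Penk rises along the axis in all groups (r = 0.98), whereas the 4 susceptible pools with more of the markers hold less Sst.

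Some markers of choroid plexus and ependyma fell. In susceptible pools 4 of 5 choroid plexus markers fell (Ttr -3.82, Kl -1.46, Folr1 -2.80 and Clic6 -0.90 on the log2 scale) and 3 of 4 ependymal markers fell (Foxj1 -0.95, Ccdc153 -1.46 and Tmem212 -1.97). In resilient pools 1 and 3 of them fell, and the summed levels of both lists overlapped those of the controls. At least 1 pool had 0 reads for 2 of the choroid plexus markers and for 1 of the ependymal markers. Over the 14 pools the choroid plexus sum had an r of 0.63 with Npy and 0.32 with Sst, and the ependymal sum 0.51 and 0.50, and within the groups these were 0.41, -0.21, 0.11 and -0.0032. Their part in the lower Npy and Sst was not tested. Among 3 GABAergic markers Slc32a1, the vesicular GABA transporter, fell in susceptible pools (-0.49, exact permutation p = 0.0952). Gad1 lay at 0.06 and Gad2 at -0.23 there, neither called. Of the 7 BNST markers Prkcd rose in resilient (0.64, exact permutation p = 0.206) and Esr1 in susceptible pools (0.61, exact permutation p = 0.0873). Cyp19a1 and Tac2 had positive estimates and Moxd1, Crh and Lhx6 negative ones in both comparisons, none called. The medians of the BNST list were 0.22 and 0.25. Of 6 oligodendrocyte, 5 astrocyte, 6 microglial and 4 endothelial markers, 1, 1, 1 and 0 rose and 2, 2, 1 and 1 fell in susceptible pools, and in resilient pools 1, 0, 1 and 0 rose and 1, 0, 1 and 0 fell. For Cck, the log2 of the summed CPM of 4 cortical excitatory markers had an r of 0.68 over the pools.

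For the 4 members with the largest estimates, the genes most like them over the 14 pools were ranked by Pearson's r of log2 CPM among all genes. For Penk they included Inka2 and Neto1, each with r of 0.99. For Npy they were Pcdhga11 (0.93), Kctd8 (0.91) and Hddc3 (0.91). For Nts they were Gtf2e1 (0.93), Gopc (0.90) and Kbtbd7 (0.88), and for Cartpt they were Fxyd6 (0.92), Nfil3 (0.90) and Elk3 (0.90).

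The other genes of the peptide systems were taken as lists by function. Of 47 other neuropeptide and peptide hormone genes 18 had a row. Adrenomedullin (Adm), a vasoactive peptide, rose in resilient (0.91, SE 0.26, adjusted p = 0.0685 from limma) and susceptible pools (0.76, SE 0.27, adjusted p = 0.121 from limma), and apelin (Apln) fell in both (-0.30 and -0.29). Nppc, the precursor of C-type natriuretic peptide, fell in resilient pools (-1.19, SE 0.53). Crh, the stress peptide corticotropin-releasing hormone, had log2 fold changes of -0.16 (SE 0.44) and -0.46 (SE 0.47), and Adcyap1, which encodes PACAP, 0.32 (SE 0.48) and 0.54 (SE 0.51), none of them called. The median over the list was -0.05 in resilient and -0.10 in susceptible pools.

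Of 25 receptor genes for the members' peptides 20 had a row, and 1 rose and 4 fell in resilient and 1 rose and 2 fell in susceptible pools. In susceptible pools these counts are near or below the shares of all genes given above. In resilient pools the share that fell lay above the 9.04% of all genes, and the share that rose lay below the 8.65%. Vipr2, a receptor for VIP and PACAP, rose in both (0.64, SE 0.23, and 0.88, SE 0.25). Tacr1, the receptor of substance P, fell in both (-0.69, SE 0.28, and -0.94, SE 0.30). Ntsr2, a neurotensin receptor, fell in resilient pools (-0.33, SE 0.14). Sstr1, a somatostatin receptor, fell in susceptible pools both against controls (-0.77, SE 0.35) and against resilient pools (-0.94, SE 0.35, adjusted p = 1.00 from limma). No receptor had an adjusted p under 0.05 in limma. The list's medians were -0.13 and -0.10.

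Of 29 genes for precursor processing and dense core vesicles 28 had a row. In resilient pools 2 rose and 4 fell, and in susceptible pools 2 rose and 5 fell, beside 8.65% and 9.65% of all genes that rose and 9.04% and 9.28% that fell. Hid1, needed for the making of dense core vesicles, rose in both (0.42, SE 0.10, adjusted p = 0.0425, and 0.47, SE 0.11, adjusted p = 0.0248, from limma). Ptprn, a vesicle membrane protein, rose in resilient pools (0.48, SE 0.13). Chgb, a granin of the vesicle core, fell in both (-0.30, SE 0.11, and -0.39, SE 0.12), as did the convertase Pcsk2 (-0.35, SE 0.16, and -0.54, SE 0.17). Pcsk1n, named after its values were seen, encodes proSAAS, an inhibitor of a prohormone convertase, and fell in both (-1.02, SE 0.33, and -0.99, SE 0.35). The list's medians were -0.05 and -0.09.

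All 19 peptidases listed had a row, of which 4 rose in resilient and 3 in susceptible pools, and 0 fell against the controls, beside 8.65% and 9.65% of all genes that rose. Dpp7, a dipeptidyl peptidase, rose in both, every defeated pool lying above every control pool (0.71, SE 0.13, adjusted p = 0.0138, and 0.73, SE 0.13, adjusted p = 0.0110, from limma). Ece2, which can process neuropeptides, rose in both (0.50, SE 0.16, and 0.54, SE 0.17), and so did Thop1, an oligopeptidase that cleaves neurotensin among others (0.35, SE 0.15, and 0.37, SE 0.16). Rnpep, an aminopeptidase, rose in resilient pools (0.28, SE 0.12). The medians over the list were 0.06 in both comparisons. In susceptible against resilient pools 1 peptidase fell and 0 rose, where 2.14% of all genes were called in either direction.

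**Figure D4:**
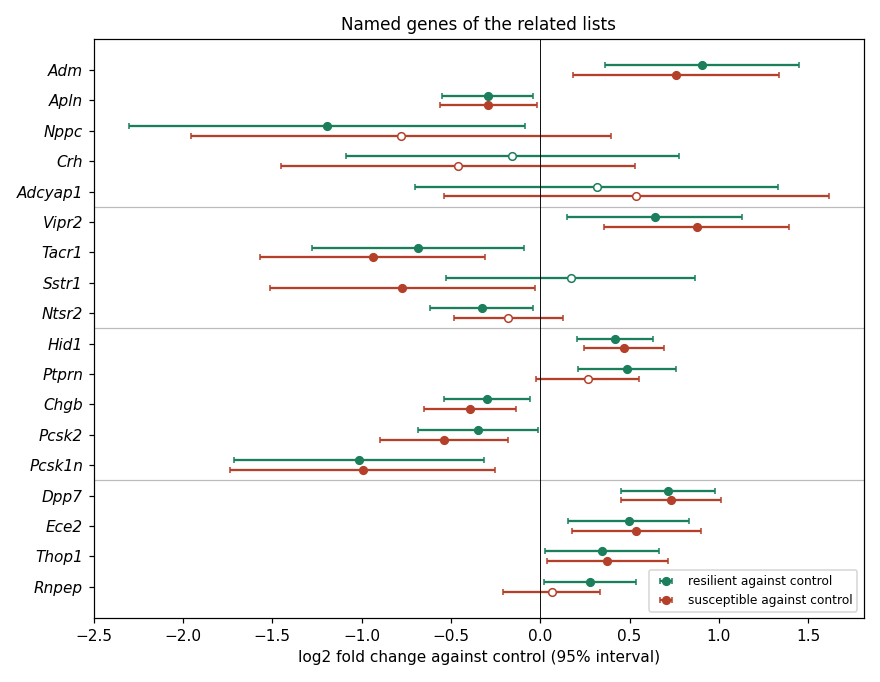
Log2 fold change against control, with 95% intervals from limma, of the named genes of 4 related lists, separated by grey lines: other neuropeptides, receptors, processing and dense core vesicle genes, and peptidases. Filled points mark called genes; the 4 peptidases lie above 0 in both groups, and Pcsk1n and Tacr1 lie below 0 in both.

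Since the mRNAs were recovered with AGO2, their 3′ UTRs were searched for sites of the miRNAs recovered in the parallel AGO2 miRNA libraries (5 control, 5 resilient and 3 susceptible pools). The 10 most abundant took a mean of 45.8% of the miRNA reads, and the 9 of them with a RefSeq entry had 7 distinct seeds (bases 2 to 8). A match to any of the 7 was found in the longest annotated 3′ UTR of 2 of the 9 members and in 59.0% of those of all genes, which are longer. The matches were 1 for miR-22-3p in Tac1 and 1 for miR-92b-3p in Cck, and are shown because these are the sites of abundant miRNAs in the set. The miRNAs are printed with the seed in capitals, and the sites, on chr6:7562722-7562750 (plus strand) and chr9:121489919-121489947 (minus strand) of GRCm38, with the matching bases in capitals.
miR-22-3p: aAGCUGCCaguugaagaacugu
Tac1 site: gagccagcgcaGGCAGCTgctgctggaag
miR-92b-3p: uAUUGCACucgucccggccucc
Cck site: ctgtccagagtGTGCAATgcagccacatc
A match of this kind occurred in 17.8% of all such 3′ UTRs for miR-22-3p and in 8.28% for miR-92b-3p, and whether the sites were occupied was not measured. The 3′ UTRs of Sst and Npy, of 156 and 180 bases, held no match to the 7 seeds.

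One miRNA, miR-6976-5p, was examined because a target list of the study pairs it with Sst. It was close to absent from the AGO2 miRNA libraries: 4 of 5 control pools and all 5 resilient pools had 0 reads, control pool 2 had 8, and susceptible pools 1, 2 and 4 had 6, 9 and 6. The difference between susceptible and control pools was not called, with an adjusted p = 0.916 over 788 miRNAs in limma and an exact permutation p = 0.125. The seed of miR-6976-5p is in capitals in cAGGGAAGuugagaggaaaauug. It had no match in the 3′ UTR of Sst and 1 match among the members, in that of Tac2. Only full matches to bases 2 to 8 were searched, so the search cannot decide on the pairing with Sst in the study.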

How the data were processed

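AGO2-bound mRNA and miRNA of BNST pools and mRNA of blood were analysed from log2 values that the authors deposited, one column per sample. Per their methods, the authors sequenced stranded mRNA libraries of AGO2 immunoprecipitates, aligned reads to GRCm38, counted them per Ensembl gene, kept genes with at least 1 CPM in 3 samples and applied voom, which gives log2 CPM with an offset of 0.5 reads. The authors later adjusted this mRNA data for the experimental cohort, but the labels do not give the cohort of each pool, so the calls here hold no such correction. All values (100%) came back to whole reads within a tolerance of 0.0001. Gene symbols were matched for 16535 of 16587 IDs (GENCODE M21).

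All 3 groups were fitted in 1 model with limma 3.58.1 in R 4.3.3, with a mean-variance trend and Benjamini-Hochberg adjustment over all genes. Single genes were also compared by exact two-sided permutation of pools. Voom on the recovered reads called 2393 genes (resilient) and 3270 genes (susceptible) against controls, where 2934 and 3140 were called in the model on the deposited values. Alternatives were another moderation, sample weights, voom on the recovered reads, quantile normalization, a filter, a replicate block, only the compared groups and leaving out each pool.

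The members and lists were chosen with earlier results of these data known. Named were the members, up to 4 genes of a related or marker list that were called, by smallest p, and Crh and Adcyap1; oligodendrocyte, astrocyte, microglial and endothelial lists are given as counts. For 4 members, the 3 genes with the highest r were named, except for an item that is not reported here. The labels do not say whether pools were prepared separately, so p-values measure the spread between these pools. For 2 blood mice label and column name disagree, so blood was compared by strain alone.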

Additional observations from a re-analysis of the deposited data

Results flagged for a closer look

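Tac2 was the one member of the set with a row in the blood mRNA table, which the comparisons of the BNST do not use. In 10 D2 mice (DBA/2Crl in the labels) Tac2 had 11 to 31 reads per mouse (median 20.5), against 0 to 6 reads (median 1) in 15 B6 mice, of which 5 had 0 reads. The totals were of similar size, from 11155167 to 15281405 reads in D2 and from 9751603 to 15878495 in B6 mice. Mean log2 CPM was 0.49 ± 0.56 (SD) in D2 and -3.12 ± 1.34 in B6 mice, and 9 of 10 D2 mice lay above every B6 mouse. The highest B6 mouse lay at a log2 CPM of -0.31, so the gene passed the authors' filter on low counts through D2 mice alone and had to differ. The comparison was also chosen after the values were seen, and no test is given. The animal names carry EC in B6 and ED in D2 mice, and the labels do not say whether any cohort held both strains. Strain and cohort may therefore not be separable here. Among the 27 sets of a member and a group, none held a pool far enough from the others to be marked by Dixon's test at 95%.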

How the results depend on the processing

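In resilient pools against controls, 2 members were called. Sample weights gave 6, voom on the recovered reads 1, and it was 1 with the compared groups fitted alone, and it ranged from 0 to 6 when 1 pool was left out. In susceptible pools against controls, again 2 were called. Voom on the recovered reads, sample weights and a fit of the compared groups alone each gave 4, and the count was from 2 to 4 without 1 pool, Sst and Npy being called in each of the 21 alternative fits. Between susceptible and resilient pools the number was 0 to 1 without 1 pool, the 1 being Cartpt without resilient pool 3. The pools share replicate numbers between groups, but same-numbered pools did not deviate together (r of -0.17 to 0.14 in 13 pairs, 2 of them over 0.1), so the numbers were not taken as pairs. With a replicate block 1 member (Npy) was called in resilient, 2 in susceptible and 0 in susceptible against resilient pools, and 2737 and 2937 genes in all were called against controls.

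Estimates that were not called changed sign in some fits. Against resilient pools, Pdyn was -0.15 and Tac1 -0.17 with voom on the recovered reads, and Tac1 was -0.0208 with quantile normalization. In susceptible pools against controls Cartpt was 0.0451 with voom and 0.0155 with quantile normalization. Without 1 pool, the log2 fold changes of susceptible against resilient pools ranged from -0.37 to 0.18 for Penk, -0.10 to 0.39 for Pdyn, -0.41 to 0.0301 for Npy, -0.24 to 0.25 for Tac1, -0.0881 to 0.40 for Tac2 and -0.32 to 0.11 for Cck. In susceptible pools against controls they ranged from -0.75 to 0.006 for Nts and -0.39 to 0.28 for Cartpt, and in resilient pools against controls from -0.0202 to 0.53 for Tac2, -0.15 to 0.53 for Adcyap1, -0.43 to 0.0877 for Crh and -0.0776 to 0.31 for Sstr1. The cause was not tested. A minimum mean log2 CPM of 2 removes Nts and Cartpt, so those have no value there. No scaling moved the median of all genes by over 0.1 on the log2 scale. Depth limits Nts, Cartpt and Tac2 most, with under 60 reads in each pool.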
